A study of Mus musculus with 2 samples.

Results

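The desmosomal cadherin and plaque genes described here are Dsg1a, Dsg1b, Dsg2, Dsg3, Dsc1, Dsc2, Dsc3, Dsp, Pkp1 and Pkp3, chosen by symbol from an expression table of whole skin. All 10 symbols were found among the 44166 genes of the table, and all 10 were above the floor of 1 FPKM in at least 1 library that 14541 genes passed. The skin came from C57BL/6 mice aged 3 days, with 1 library for the genotype RNF31fl/fl-K14-cre, labelled KO, and 1 library for wildtype, labelled WT. Both alleles of Rnf31, the gene of the linear ubiquitin ligase HOIP, are floxed in the first genotype, and K14-cre expresses the recombinase from the promoter of keratin 14. That promoter works in the basal layer, and recombined basal cells hand the deletion on to the layers above, while dermal and blood cells lie outside its range by design. Neither the number of animals behind a library nor any floxed allele or Cre in the wildtype is stated in the labels.

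Desmosomes are the junctions that rivet neighbouring keratinocytes together. Their transmembrane part is made of 2 kinds of cadherin, the desmogleins and the desmocollins, whose tails bind plakoglobin and the plakophilins, and desmoplakin links these plaque proteins to the keratin filaments. The epidermis exchanges cadherin isoforms as cells move outward: desmoglein 3 and desmocollin 3 prevail in the lower layers, desmoglein 1 and desmocollin 1 in the upper ones, while desmoglein 2 and desmocollin 2 are the broadly used isoforms of simple epithelia and heart.

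The genotype check went against the label. Rnf31 was at 5.40 FPKM in the library labelled KO and 3.95 FPKM in the library labelled WT, so the libraries are called by their labels throughout and every direction below rests on those labels. A value for the whole gene in whole skin sums all exons and all cell types, and the labels do not say which exons are floxed. Levels are in FPKM, fragments scaled to transcript length and to library depth, so that levels of different genes can be set side by side. With 1 library a genotype there is no replicate check and no test. A gene is called higher or lower where FPKM + 1 was 2-fold apart, which is a log2 ratio of 1 or more, or of -1 or less. Ratios of FPKM carry a 95% interval, exact and binomial, from fragments estimated out of the FPKM steps. It covers counting error only and not the difference between animals.

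By this rule, the library labelled KO had the higher level for 4 of the 10 genes and the lower level for 0. The 4 are the desmocollin gene Dsc2, the desmoglein genes Dsg3 and Dsg1b, and the plakophilin gene Pkp1. Over all 14541 genes, 7.59% were higher by the same rule and 4.09% lower. Any log2 ratio above 0 was found for 8 of the 10 genes and for 42.6% of all genes. The median log2 ratio was 0.78 for the 10 genes and -0.08 for all genes. The members' summed level was 1389 FPKM in the library labelled KO and 813 FPKM in the library labelled WT, a ratio of 1.71. Of all genes past the rule 65.0% were higher, a share that was 54.5% when the 50 most abundant genes were left out of the scaling and 53.4% when the libraries were scaled to an equal FPKM sum, 57.7% with a pseudocount of 0.1, and 76.2% with one of 5. Both of these scalings, by the 50 genes and by the sum, shifted the median of all genes by -0.12, and the same 4 members stayed past the rule under every scaling tried.

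**Figure D1:**
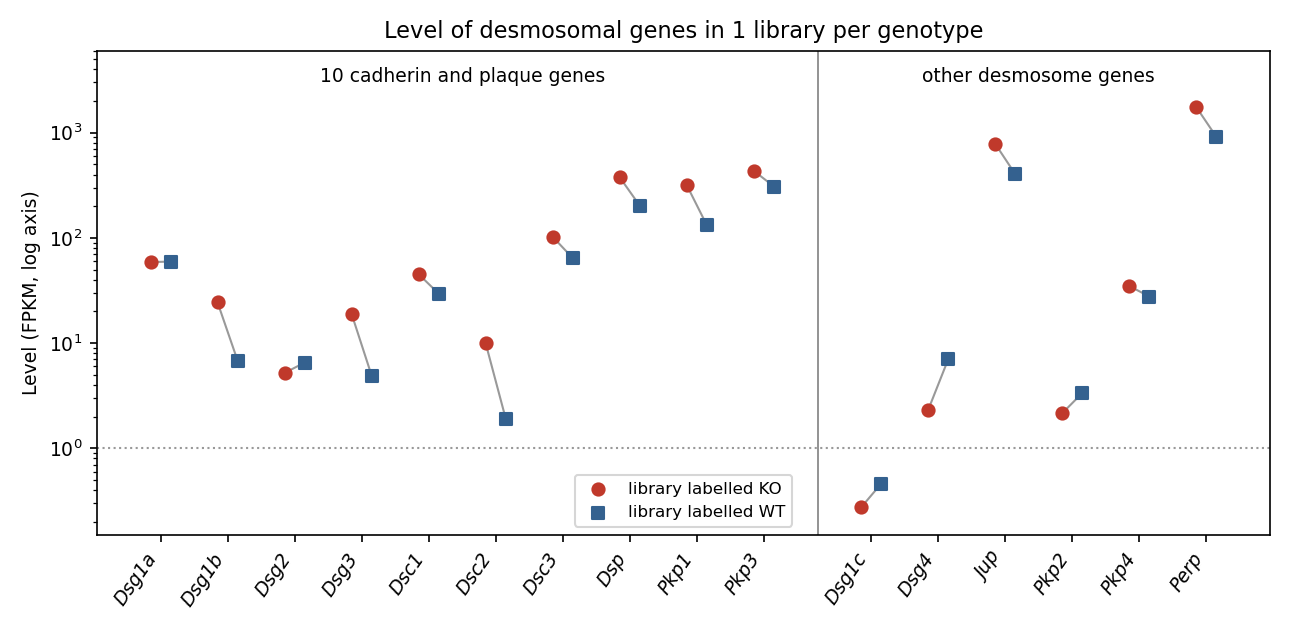
Level in FPKM on a log axis of the 10 cadherin and plaque genes (left) and 6 other desmosome genes (right), with circles for the library labelled KO and squares for the library labelled WT, 1 library each, and a dotted line at 1 FPKM. The plaque genes Dsp, Pkp1 and Pkp3 lie above 100 FPKM in both libraries, whereas Dsc2, Dsg3 and Dsg1b lie below 10 FPKM in the library labelled WT.

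Among the desmogleins, the adhesive cadherins with the longer tail, the common isoform was level and scarcer ones differed. Dsg1a, the main desmoglein 1 gene of these libraries, was at 58.8 FPKM in the library labelled KO and 59.5 FPKM in the library labelled WT. Its ratio was 0.988 (0.952 to 1.03), and its log2 ratio of -0.02 became 0.08 with scaling by the median of ratios. Dsg1b, a neighbouring copy of the desmoglein 1 gene, was at 24.35 FPKM in the library labelled KO and 6.79 FPKM in the library labelled WT. That is a ratio of 3.59 (3.22 to 4.01) and a log2 ratio of 1.70, from an estimated 1557 and 417 fragments. Dsg3, the desmoglein of the lower epidermis and the pemphigus vulgaris antigen in humans, was at 18.9 FPKM in the library labelled KO and 4.87 FPKM in the library labelled WT. Its ratio was 3.88 (3.51 to 4.30) and its log2 ratio 1.76. Dsg2, the desmoglein of simple epithelia and heart, lay on the other side of equality, with 5.20 FPKM in the library labelled KO and 6.53 FPKM in the library labelled WT (ratio 0.796, 0.705 to 0.898), inside the 2-fold rule.

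Desmoglein 1 is a single gene in humans, and mice have close copies of it whose reads are partly interchangeable. Of the 50-base windows of the Dsg1b transcript, 45.5% occur unaltered in the Dsg1a transcript, as do 31.6% of its 100-base windows. The labels state neither a read length nor how shared reads were divided, so the split between Dsg1a and Dsg1b is uncertain. Dsg1c, the remaining copy, was at 0.274 FPKM in the library labelled KO and 0.462 FPKM in the library labelled WT, under the floor in both. With the 3 copies summed, the log2 ratio of desmoglein 1 was 0.32, inside the rule, and 3 genes (Dsg3, Dsc2 and Pkp1) were then higher. Other members shared few windows. None of the 100-base windows of Dsg3, Dsc1, Dsc2, Dsc3, Pkp1 and Pkp3 occurs in another gene's transcript, while 4.11% of those of Dsg2 and 4.21% of those of Dsp do.

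The 3 desmocollins were all above equality. Dsc3, the desmocollin of the basal and lower spinous layers and the most abundant cadherin of the set in both libraries, was at 102 FPKM in the library labelled KO and 64.0 FPKM in the library labelled WT. Its ratio of 1.60 (1.54 to 1.65) was inside the 2-fold rule. Dsc1, the desmocollin of the upper layers, was at 45.1 FPKM in the library labelled KO and 29.4 FPKM in the library labelled WT, a ratio of 1.53 (1.45 to 1.62) and also inside the rule. Dsc2, the broadly expressed desmocollin and the scarcest member in the library labelled WT, was at 9.92 FPKM in the library labelled KO and 1.898 FPKM in the library labelled WT. The ratio of 5.23 (4.35 to 6.31) and the log2 ratio of 1.91 were the largest of the 10, from an estimated 750 and 138 fragments. In the order of log2 ratios of all 14541 genes from the highest down, Dsc2 stood at place 328, Dsg3 at 391, Dsg1b at 416 and Pkp1 at 760.

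The plaque genes were more abundant than the cadherins, and their ratios ran between 1.41 and 2.404. Dsp, the gene of desmoplakin, the anchor of keratin filaments, was at 375 FPKM in the library labelled KO and 201 FPKM in the library labelled WT. Its ratio was 1.86 (1.84 to 1.89) and its log2 ratio 0.90, inside the rule. Pkp1, a plakophilin enriched in the suprabasal layers whose loss in humans causes skin fragility, was at 316 FPKM in the library labelled KO and 131 FPKM in the library labelled WT. Its ratio of 2.404 (2.35 to 2.46) was the only one of the 3 plaque genes past the rule. Pkp3, the plakophilin present in all living layers, was at 433 FPKM in the library labelled KO and 307 FPKM in the library labelled WT, a ratio of 1.41 (1.38 to 1.44). Pkp3 was the most abundant of the 10 genes in both libraries. The exons of Dsp share 499 bases, 5.17% of the total, with Gm10129 on the opposite strand, and those of Dsg2 share 330 bases, 3.99%, with Gm16090 on the opposite strand. The library kit keeps strand, per the labels, but no source used here says whether counting used it.

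Plakoglobin (Jup), the arm-repeat protein that bridges cadherin tails and desmoplakin, stayed close to Dsp. Jup was at 782 FPKM in the library labelled KO and 402 FPKM in the library labelled WT. Its level was 2.08 times that of Dsp within the library labelled KO and 1.997 times within the library labelled WT. This was not particular to Jup. The level of Perp, taken up below, was 4.65 times that of Dsp in the library labelled KO and 4.51 times in the library labelled WT. The 250 bases before the RefSeq start of Dsp and of Jup are printed to show the promoters of these plaque genes. They are on the gene's own strand in GRCm38.p6, at chr13:38151044-38151293 (plus strand) for Dsp and chr11:100397791-100398040 (minus strand) for Jup. Capitals mark matches, on either strand, to the motifs searched, of which only GGGCGG and CCAAT were found.
Dsp: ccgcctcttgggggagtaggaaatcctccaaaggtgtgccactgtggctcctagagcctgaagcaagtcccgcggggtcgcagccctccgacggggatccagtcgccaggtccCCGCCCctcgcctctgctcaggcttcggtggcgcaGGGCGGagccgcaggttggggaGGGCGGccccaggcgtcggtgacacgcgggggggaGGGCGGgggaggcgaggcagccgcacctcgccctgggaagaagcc
Jup: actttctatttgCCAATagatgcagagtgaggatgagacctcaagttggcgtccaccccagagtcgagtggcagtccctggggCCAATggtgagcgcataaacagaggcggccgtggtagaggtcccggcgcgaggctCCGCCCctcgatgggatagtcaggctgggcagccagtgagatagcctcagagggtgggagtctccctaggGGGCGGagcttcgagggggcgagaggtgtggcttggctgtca
The motifs searched were the TATA box (TATAAA), the GC box (GGGCGG), the CCAAT box (CCAAT), an AP-1 motif (TGANTCA) and a Grainyhead motif (AACNNGTT). Dsp holds 4 matches to GGGCGG, between 137 and 40 bases before the start. Jup holds 2 matches to GGGCGG and 2 to CCAAT. Among 32851 RefSeq promoter windows of that length, 32.7% hold GGGCGG, 33.8% hold CCAAT, 12.4% hold TATAAA, 6.75% hold TGANTCA and 3.64% hold AACNNGTT. A match is a description of the letters and was not tied to any factor here. RefSeq windows were matched for 1 of the 10 members, Dsp, and for Jup and Pkp4 among the other desmosome genes.

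Isoform use by epidermal layer did not sort the genes by their ratios. Of the 4 genes weighted to basal and lower layers or broadly expressed (Dsg2, Dsg3, Dsc2, Dsc3), 2 were higher, and the log2 ratios ran between -0.28 and 1.91 with a median of 1.21. Of the 4 genes weighted to suprabasal layers (Dsg1a, Dsg1b, Dsc1, Pkp1), 2 were higher as well, and the log2 ratios ran between -0.02 and 1.70 with a median of 0.93. The ranges of the 2 groups overlap almost entirely. By the 2-fold rule 7.59% of all genes were higher and 4.09% lower. The difference of the medians, 0.29 for basal minus suprabasal, was -0.01 with a pseudocount of 5. It was 0.61 with the Dsg1 copies summed and also 0.61 without Pkp1. Summed cadherin level, basal-weighted over suprabasal-weighted, was 1.06 in the library labelled KO and 0.807 in the library labelled WT. Dsp and Pkp3, used in all living layers, were at 0.90 and 0.49. The basal-weighted group holds Dsg2 below equality beside Dsg3 and Dsc2, which were more than 3-fold apart between the libraries. The suprabasal-weighted group holds Dsg1a near equality beside Dsg1b, its 1 gene more than 3-fold apart, and that value rests on the uncertain split between the Dsg1 copies.

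**Figure D2:**
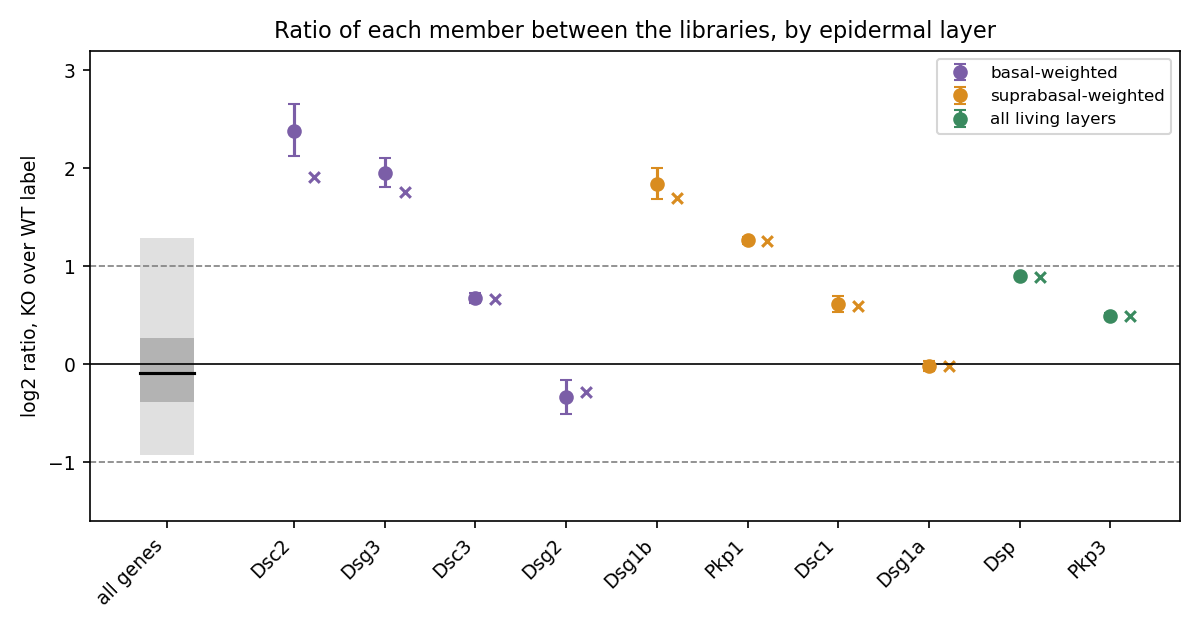
The log2 ratio of the library labelled KO over the library labelled WT for each of the 10 genes, grouped by layer. Circles give FPKM without pseudocount with 95% counting intervals, crosses give FPKM + 1, dashed lines mark the 2-fold rule, and the bar at the left gives the range between the 5th and 95th (light) and 25th and 75th (dark) percentiles of 14541 genes on FPKM + 1 with their median. Both the basal-weighted and the suprabasal-weighted group run from near or below 0 to above 1.5.

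The mix of isoforms within a library does not depend on the scaling between libraries. Desmoglein shares are of the summed FPKM of Dsg1a, Dsg1b, Dsg2 and Dsg3. Dsg1a and Dsg1b together made up 77.5% in the library labelled KO and 85.3% in the library labelled WT. With Dsg1c and Dsg4 added, the Dsg1 copies made up 76.0% in the library labelled KO and 78.35% in the library labelled WT. Among the members alone, Dsg3 made up 17.6% in the library labelled KO and 6.27% in the library labelled WT. Dsg1b made up 22.7% in the library labelled KO and 8.73% in the library labelled WT. On estimated fragments the share of Dsg1b was 16.3% (exact Clopper-Pearson interval 15.6% to 17.1%) in the library labelled KO and 6.06% (5.51% to 6.65%) in the library labelled WT. These intervals cover counting error only and not the uncertain split of reads between the Dsg1 copies. That split bears on every share or level of Dsg1a or Dsg1b taken alone. The level of Dsg1a was 3.11 times that of Dsg3 in the library labelled KO and 12.2 times in the library labelled WT. Among the desmocollins, Dsc1 and Dsc3 kept nearer shares than Dsg1a and Dsg1b together, or Dsg3, did among the member desmogleins. With Dsg1c and Dsg4 added, the summed Dsg1 copies were about as near as Dsc1. Dsc1 made up 28.7% of summed desmocollin FPKM in the library labelled KO and 30.9% in the library labelled WT, and the level of Dsc3 was 2.27 times that of Dsc1 in the library labelled KO and 2.17 times in the library labelled WT. Dsc2 was a small part of the family, with 6.31% in the library labelled KO and 1.99% in the library labelled WT. Pkp1 made up 42.2% of the FPKM of the 2 plakophilins in the library labelled KO and 29.9% in the library labelled WT.

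**Figure D3:**
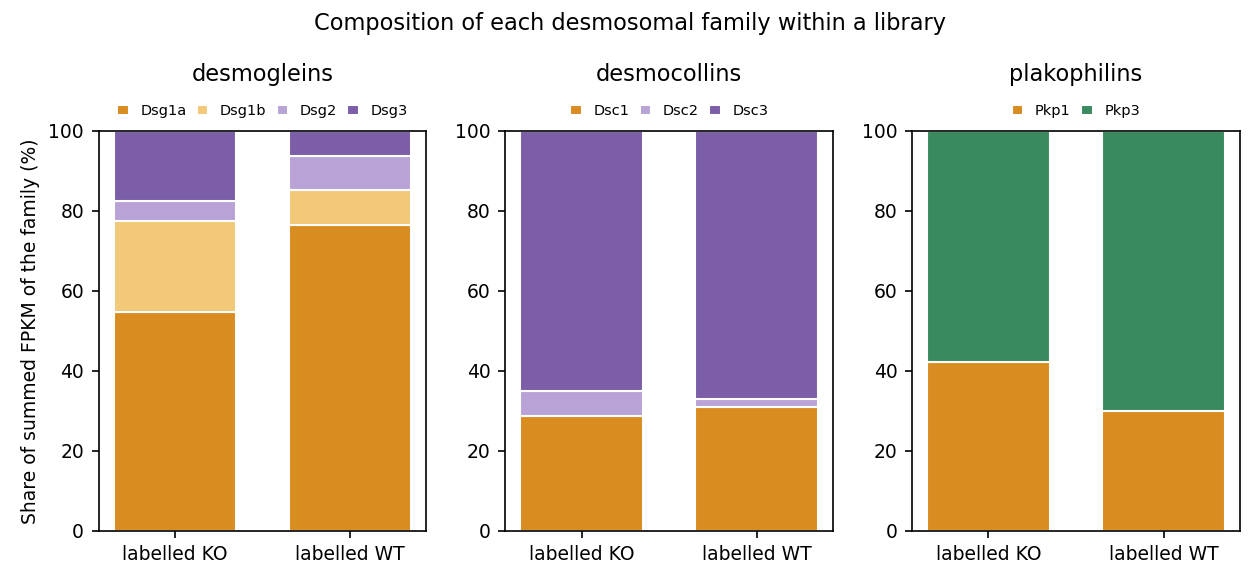
Share in percent of the summed FPKM of the desmogleins, the desmocollins and the plakophilins taken by each gene, within the library labelled KO (left bar) and the library labelled WT (right bar), 1 library each. Dsg1a takes 54.8% of the member desmogleins, without Dsg1c and Dsg4, in the library labelled KO and 76.6% in the library labelled WT. The split of reads between Dsg1a and Dsg1b is uncertain. Dsc1 and Dsc3 keep nearer shares than Dsg1a does, while Dsc2 takes 6.31% in the library labelled KO and 1.99% in the library labelled WT.

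Across families, the sums take in members only, without Dsg1c and Dsg4. Summed desmoglein level was 107 FPKM in the library labelled KO and 77.7 FPKM in the library labelled WT, a ratio of 1.38. Summed desmocollin level was 157 FPKM in the library labelled KO and 95.3 FPKM in the library labelled WT, a ratio of 1.65. The 2 plakophilins summed to 749 FPKM in the library labelled KO and 439 FPKM in the library labelled WT, a ratio of 1.71. Desmoplakin level per cadherin level, Dsp over the 7 cadherins, was 1.42 in the library labelled KO and 1.16 in the library labelled WT. Desmoplakin transcripts exceeded the 7 cadherins together, per length, in both libraries.

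The 7 cadherin members lie in 1 cluster with Dsg1c and Dsg4, on chromosome 18 from 19960930 to 20604521 in GRCm38, 644 kb that hold the desmocollins on the minus strand and the desmogleins on the plus strand. Neighbours in this cluster mostly did not share their ratios. Dsc2, at a log2 ratio of 1.91, lies between Dsc3 (0.67) and Dsc1 (0.60). Dsg1b (1.70) lies between Dsg1a (-0.02) and Dsg4 (-1.28), and Dsg3 (1.76) lies between Dsg4 and Dsg2 (-0.28). Dsg1c (-0.20, under the floor) lies next to Dsg1a. Without pseudocount its log2 ratio was -0.75, from an estimated 18 fragments in the library labelled KO and 29 in the library labelled WT. The interval of its FPKM ratio, 0.312 to 1.11, is too wide to set Dsg1c beside Dsg1a. The contrast of Dsg1b with Dsg1a rests on the uncertain split of reads between the Dsg1 copies. Dsp is on chromosome 13 (38151294 to 38198577), Pkp1 on chromosome 1 (135871395 to 135919207) and Pkp3 on chromosome 7 (141078218 to 141090510).

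**Figure D4:**
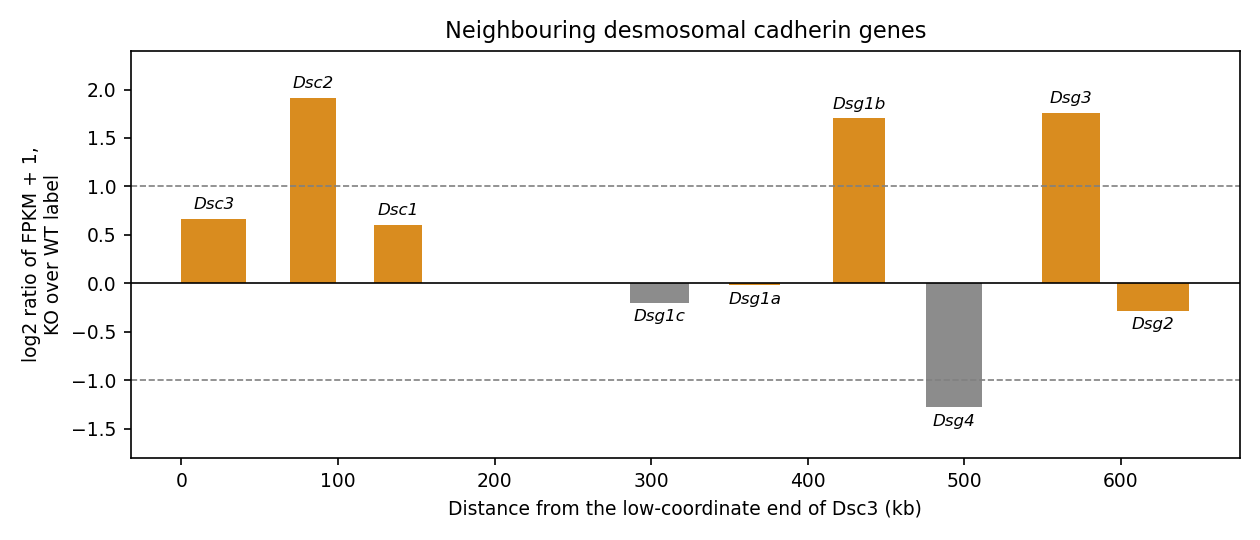
The log2 ratio of FPKM + 1 of the library labelled KO over the library labelled WT for the 9 desmosomal cadherin genes in their genomic order, with distance in kb along the x axis, the bar width showing the gene's extent, members in orange and Dsg1c and Dsg4 in grey. Bars past the dashed 2-fold lines, such as Dsc2 and Dsg3, stand next to bars inside them. The bars of Dsg1a, Dsg1b and Dsg1c rest on the uncertain split of reads between these copies.

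Among 6 further desmosome genes, 5 passed the floor, and of these 0 were higher and 1 was lower (median 0.32). The shares over all genes were 7.59% higher and 4.09% lower. Dsg4, the desmoglein of the hair follicle and upper epidermis, was the lower one, at 2.31 FPKM in the library labelled KO and 7.04 FPKM in the library labelled WT (ratio 0.329, 0.266 to 0.402). Perp, a tetraspan protein of desmosomes, was at 1745 FPKM in the library labelled KO and 909 FPKM in the library labelled WT. Perp (0.94) and Jup (0.96) were just inside the 2-fold rule, and both passed it with scaling by the median of ratios. Pkp2, the plakophilin of heart and simple epithelia, was at 2.15 FPKM in the library labelled KO and 3.36 FPKM in the library labelled WT. Pkp4, a relative found mainly at adherens junctions, was at 34.8 FPKM in the library labelled KO and 27.7 FPKM in the library labelled WT.

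Median log2 ratios of other junction lists lay on both sides of the 0.78 of the 10 desmosomal genes. The lists are too short for their counts to be compared. Over all genes 7.59% were higher and 4.09% lower, so a count of 0 in a short list is near the share of all genes. Of 9 adherens junction genes, which serve the actin-linked contacts between the same cells, 0 were higher and 0 lower, and the median log2 ratio was 0.15. E-cadherin (Cdh1) was at 104 FPKM in the library labelled KO and 71.8 FPKM in the library labelled WT, and beta-catenin (Ctnnb1) was at 350.3 FPKM in the library labelled KO and 576 FPKM in the library labelled WT. Hemidesmosome genes fasten basal cells to the basement membrane, and 3 of 6 were higher and 0 lower (median 1.12). The higher ones were Col17a1 (log2 ratio 2.002), Itga6 (1.86) and Itgb4 (1.55). Of 4 genes of the corneodesmosome and the envelope plakins, Cdsn, the corneodesmosin gene, was higher, at 429 FPKM in the library labelled KO and 147 FPKM in the library labelled WT. Envoplakin (Evpl) and periplakin (Ppl), which join desmosomes to the cornified envelope, were inside the rule at 0.32 and 0.60, and Kazn, the gene of kazrin, was inside it at -0.35. Of 6 genes of corneodesmosome proteases and their inhibitor, 4 were higher and 0 lower. They are the kallikreins Klk5 (log2 ratio 2.69) and Klk7 (2.51), the cathepsin Ctsl (1.54) and the inhibitor Spink5 (3.45), while the protease gene St14 was at -0.96 and passed the rule as lower with the top 50 genes left out of the scaling or with equal FPKM sums.

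**Figure D5:**
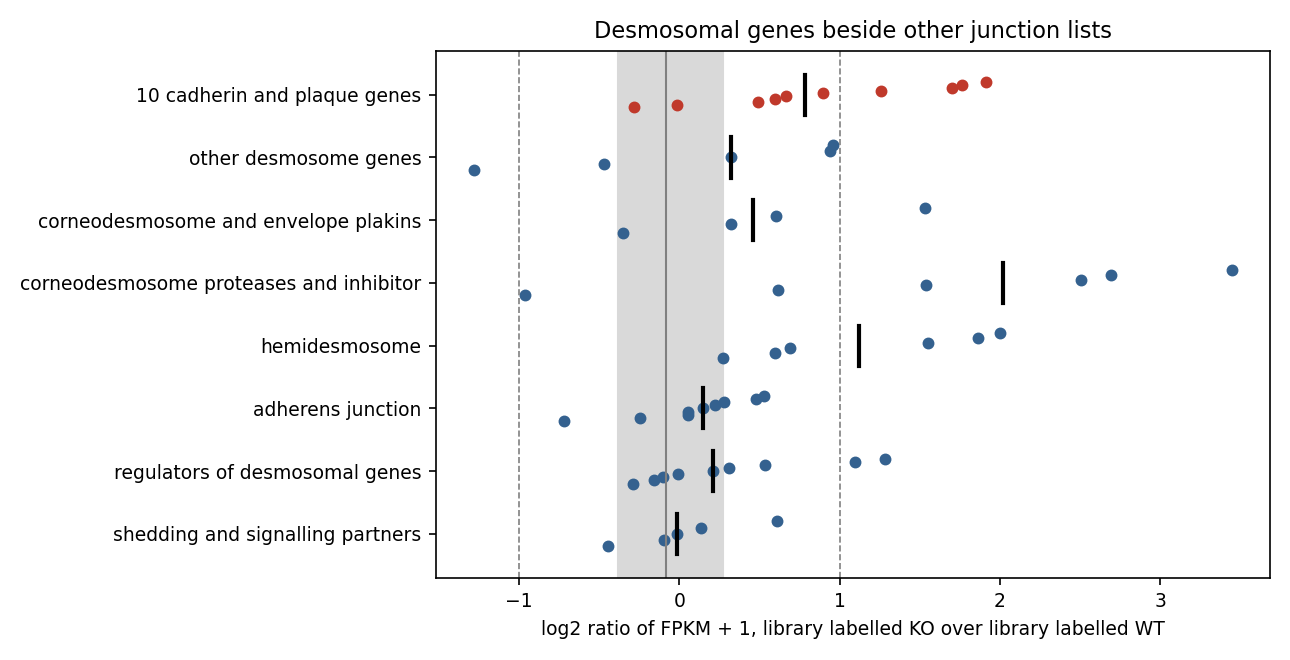
The log2 ratio of FPKM + 1, library labelled KO over library labelled WT, of each gene above the floor in 8 lists, with a black bar at the list median. The grey band and line give the 25th to 75th percentile and the median of 14541 genes, and dashed lines mark the 2-fold rule. The 10 cadherin and plaque genes have a median of 0.78, between the adherens junction (0.15) and hemidesmosome (1.12) lists.

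Factors known to act on desmosomal genes mostly stayed inside the rule, as did most of all genes. Among 9 such genes, 2 were higher and 0 lower (median 0.21), beside 7.59% higher and 4.09% lower over all genes. Klf4, a factor of late differentiation, was at 276 FPKM in the library labelled KO and 113 FPKM in the library labelled WT, and Grhl3 was at 19.2 FPKM in the library labelled KO and 8.44 FPKM in the library labelled WT. Klf5 and Cebpb, factors expressed in the epidermis, were inside the rule at 0.31 and 0.54. Of 5 partners in shedding and signalling, 0 were higher and 0 lower, which is near the shares of all genes. Adam17, a sheddase of desmoglein 2, had the highest log2 ratio of these, 0.61, and Erbin, a partner of desmoglein 1, the lowest, -0.45.

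Keratinocyte markers differed as well, not all in 1 direction. In bulk skin, fewer cells of a type and less RNA per cell cannot be told apart. Beside the counts that follow, 7.59% of all genes were higher and 4.09% lower. Of 7 basal keratinocyte markers 5 were higher and 1 lower, and their summed level was 15954 FPKM in the library labelled KO and 2192 FPKM in the library labelled WT. Krt14 alone was at 12590.1 FPKM in the library labelled KO and 816 FPKM in the library labelled WT. The lower one, Krt15, was at 97.1 FPKM in the library labelled KO and 225.5 FPKM in the library labelled WT. Trp63 was inside the rule at -0.16. Of 5 suprabasal markers, Krtdap, Sbsn and Dmkn were higher, Krt10 was lower, and Krt1 was inside the rule at -0.39. The 5 suprabasal markers summed to 12449.6 FPKM in the library labelled KO and 3438 FPKM in the library labelled WT. All 6 markers of activated keratinocytes were higher, and 5 of 8 hair follicle markers were lower. Of other cell types, 4 of 4 melanocyte markers were lower (median log2 ratio -1.76), 3 of 4 macrophage markers were higher (median 1.06), and 2 of 4 adipocyte markers were lower (median -1.07). The simple epithelial keratins Krt8, Krt18 and Krt19 were each below 5 FPKM in both libraries, and Epcam, the remaining gene of that list, was at 70.8 FPKM in the library labelled KO and 63.9 FPKM in the library labelled WT. Among 4 cardiac muscle markers, Myh6 and Nppa were near 0 in both libraries, whereas Tnnt2 was at 43.0 FPKM in the library labelled KO and 23.1 FPKM in the library labelled WT, and Tnni3 was at 2.78 FPKM in the library labelled KO and 1.45 FPKM in the library labelled WT. No marker of these lists was listed at 0. The part of cell composition in the ratios of the desmosomal genes was not tested.

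In the authors' deposited table, none of the 10 members was called significant by the authors' own Cuffdiff comparison of the 2 libraries, which called 0.616% of 15589 genes. The authors' deposited table gives q-values of 0.247 for Dsc2, 0.281 for Dsg3 and 0.332 for Dsg1b, the lowest of the members. These 3 genes had an unadjusted p under 0.05 in the authors' deposited table, as did 5.18% of all genes tested there. That comparison has no replicates behind it and compares these libraries, not the genotypes.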

How the data were processed

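RNA of whole skin was sequenced in 2 libraries of mice aged 3 days, 1 for each genotype. The labels' protocols name a strand-keeping kit. Per the submitters' processing notes, the tools were cutadapt 1.9.1, HISAT2 2.0.4 and Cufflinks 2.2.1 on GRCm38. The authors deposited FPKM per gene and library, with the p-value and q-value of their Cuffdiff comparison per the file headers. A deposited sheet gives the read count of each library, 20511407 for KO and 19619928 for WT, and the fraction aligned, 93.59% and 92.56%.

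The measure was the log2 ratio of FPKM + 1, KO over WT, which understates the difference of low genes, over genes with at least 1 FPKM in at least 1 library. Low FPKM of genes with 1 transcript of at least 1500 bases, times length less 300 bases, lay within 0.25 of whole steps for 78.2% of values in KO and 79.8% in WT. A step set in advance would give 50% by chance, but the steps and the 300 bases were fitted to these same genes. The percentages are therefore no independent check of the steps. These steps gave estimated fragments, with the longest transcript of GENCODE mouse release 21 (43831 identifiers matched). FPKM of 1 over 2 kb of length so reduced was about 34.9 fragments in KO and 33.6 in WT. The step estimate and 2-fold calls were checked on simulated data for genes with 1 transcript, with independent fragments and no shared reads. Genes with several transcripts, most members among them, and the split between the Dsg1 copies lie outside that check. Intervals assume independent fragments, which reads lacking molecular identifiers are not.

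Named genes are the 10 members, the 6 other desmosome genes, Rnf31, Krt1 and Trp63. From each list come genes past the 2-fold rule or among its 4 largest differences. Members and lists were chosen with earlier results of these data known. Alternatives were other pseudocounts, floors, scalings, layer groups and sums of Dsg1 copies. Python 3.11.15, scipy 1.17.1 and pandas 2.3.3 were used.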

Additional observations from a re-analysis of the deposited data

How the results depend on the processing

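The count of 4 members higher and 0 lower was the same under both other pseudocounts, all 3 other scalings and both other floors, and it was 3 and 0 with the Dsg1 copies summed. No member crossed the 2-fold rule in 50 comparisons with another pseudocount or scaling, and 1 value, that of Dsg1a with scaling by the median of ratios, changed its sign (0.08). Between these settings the log2 ratio of Dsc2 ran between 1.11 and 2.33 and that of Dsg3 between 1.28 and 1.93. The difference of layer medians turned to -0.0127 with a pseudocount of 5, where the pseudocount takes more from the low genes Dsc2 and Dsg3, and was 0.61 both with the Dsg1 copies summed and without Pkp1. With Dsg1c and Dsg4 added to the desmogleins, the share of Dsg1a, Dsg1b and Dsg1c was 76.0% in the library labelled KO and 78.35% in the library labelled WT. The share of Dsg1a and Dsg1b was 81.5% and 93.2% (labelled KO and WT) without Dsg2, and 74.3% and 84.3% (labelled KO and WT) on estimated fragments. The share of Dsc1 among desmocollins was 30.6% in the library labelled KO without Dsc2, and on fragments it was 23.45% in the library labelled KO and 25.2% in the library labelled WT. The cause of the other moves was not tested. Dsg4 was inside the rule with a pseudocount of 5, and of Klf4 and Grhl3 only Klf4 stayed past it with that pseudocount, with scaling that leaves out the top 50 genes or with equal FPKM sums. Under these 2 scalings 1 of the corneodesmosome protease genes, St14, was lower, and with a pseudocount of 0.1 the number higher was 5 in place of 4.

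No paired analysis was possible because each genotype has 1 library, and leaving out a replicate was not possible for the same reason. Estimated fragments of the members ran between 138 and 60882, and the spread between animals is unknown.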
